A study of Homo sapiens with 8 samples.

Results

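The MHC class I antigen presentation genes described here are HLA-B, HLA-C, HLA-E, B2M, TAP1, TAP2 and TAPBP. They were taken by symbol from the count table of the series. All 7 symbols were present, among 13751 distinct symbols, and they stood on 15 of its 13841 rows. B2M and TAP1 had 1 row each, HLA-B and HLA-E 2 rows each, and HLA-C, TAP2 and TAPBP 3 rows each. The counts came from 2 groups of 4 libraries of A549, a long-established human cell line that was grown out of an adenocarcinoma of the lung. β-galactosidase-positive cells, which the labels call Senescent, gave libraries 1, 3, 4 and 5. β-galactosidase-negative cells, labelled Non_senescent, gave libraries 2, 6, 7 and 8. Both groups had been stretched cyclically for 24 h (15% elongation, 15 cycles per min) and sorted by that lysosomal activity after 6 days of culture, so cells that were never stretched were not analysed here. Both groups are the same carcinoma line, and nothing in the labels ties a library to a culture of its own. The p-values therefore reflect how much these libraries vary, which may be technical.

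MHC class I molecules show peptides from inside the cell to CD8 T cells and natural killer cells. Each consists of a heavy chain, here HLA-B, HLA-C or the less variable HLA-E, and the light chain β2-microglobulin, encoded by B2M. TAP1 and TAP2 form the transporter that brings peptides into the endoplasmic reticulum, and tapasin, encoded by TAPBP, ties that transporter to the empty heavy chain and helps to load it. Interferons and NF-kappaB are known to raise transcription of these genes, and so does NLRC5, a coactivator of class I promoters.

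In GRCh38 with GENCODE annotation, all members but B2M are on chromosome 6, in the major histocompatibility complex. HLA-E spans 30489467 to 30494205, HLA-C 31268749 to 31272130, TAP2 32821833 to 32838780, TAP1 32845209 to 32853978 and TAPBP 33299694 to 33314387. The annotated span of HLA-B, 31269491 to 31357188, overlaps that of HLA-C on the same strand. B2M is on chromosome 15 at 44711487 to 44718877. All 7 are protein-coding.

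Promoter windows for 6 of the 7 members were found in the RefSeq table for GRCh38.p14, namely for HLA-B, HLA-C, B2M, TAP1, TAP2 and TAPBP. The 250 bases before the RefSeq start of 4 members with enough counts to be tested are shown. They hold letter matches to elements through which class I genes are known to be induced. RefSeq and GENCODE starts differ. The TAPBP window lies inside the GENCODE span given above, and those of HLA-C, B2M and TAP2 overlap their spans in part. They lie at chr6:31272093-31272342 on the minus strand (HLA-C), chr15:44711267-44711516 on the plus strand (B2M), chr6:32838740-32838989 on the minus strand (TAP2) and chr6:33314079-33314328 on the minus strand (TAPBP). Capitals mark every match, on either strand, to the tandem interferon response element (GAAA, any 2 bases, GAAA), its class I form GAAGTGAAA, a kappaB motif (GGG, any 2 bases, T, any 2 bases, CC), TGACG (core of a cyclic AMP response element) or CCAAT. These letters were chosen with the windows already seen.
HLA-C: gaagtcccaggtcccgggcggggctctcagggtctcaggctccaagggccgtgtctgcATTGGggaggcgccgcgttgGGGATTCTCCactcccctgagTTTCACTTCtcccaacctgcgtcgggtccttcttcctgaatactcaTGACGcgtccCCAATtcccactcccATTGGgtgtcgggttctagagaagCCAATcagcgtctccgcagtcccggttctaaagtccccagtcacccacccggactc
B2M: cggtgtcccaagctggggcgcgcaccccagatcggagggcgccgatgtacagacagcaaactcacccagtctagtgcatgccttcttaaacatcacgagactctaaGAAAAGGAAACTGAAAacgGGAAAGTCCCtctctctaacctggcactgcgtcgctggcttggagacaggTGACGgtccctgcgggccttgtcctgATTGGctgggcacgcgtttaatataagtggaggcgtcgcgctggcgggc
TAP2: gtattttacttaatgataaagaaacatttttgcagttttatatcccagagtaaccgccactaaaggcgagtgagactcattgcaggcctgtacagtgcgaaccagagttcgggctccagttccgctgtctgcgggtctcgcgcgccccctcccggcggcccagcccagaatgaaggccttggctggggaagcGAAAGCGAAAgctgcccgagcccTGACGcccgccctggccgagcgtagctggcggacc
TAPBP: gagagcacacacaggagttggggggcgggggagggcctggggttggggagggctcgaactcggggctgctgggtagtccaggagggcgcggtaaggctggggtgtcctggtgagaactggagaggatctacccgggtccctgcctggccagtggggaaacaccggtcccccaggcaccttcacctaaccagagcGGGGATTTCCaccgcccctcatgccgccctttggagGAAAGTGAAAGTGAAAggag

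The tandem interferon element was matched in the windows of B2M, TAP2 and TAPBP, with 2 overlapping matches each in B2M and TAPBP, and in the first of the 2 TAP1 windows. It stood in 3.02% of 35093 promoter windows of the same length. GAAGTGAAA, read on the opposite strand as TTTCACTTC, was matched in HLA-C at positions -151 to -143 and in HLA-B at -155 to -147, and in 0.439% of all windows. The kappaB motif was matched in HLA-B, HLA-C, B2M, TAPBP and the first TAP1 window, and in 19.7% of all windows. TGACG (21.2% of all windows) was matched in HLA-B, HLA-C, B2M and TAP2, and CCAAT (32% of all windows) in HLA-B, HLA-C, B2M and the first TAP1 window. A match describes the letters and does not show that a factor was bound.

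The libraries held between 5634961 and 7990839 counts. In edgeR's quasi-likelihood test 0 of 11351 rows passed an adjusted p of 0.05, with 1631 at an unadjusted p under 0.05, while the count was 0 with limma voom and 52 with the Wald test of DESeq2 (0.458% of the rows, and 0 of the members). The 11 markers of lung adenocarcinoma epithelium were all in the table, summing to 8973 to 10730 CPM (counts scaled by library total) in positive and 10795 to 11999 CPM in negative libraries. Their log2 fold changes were below 0 in 11 of 11, where 5891 of all 11351 rows tested were below 0. Only NQO1 (-0.39), 1 of 11, was lower at an unadjusted p under 0.05, beside 6.85% of all rows. The aldehyde and carbonyl enzymes ALDH1A1 and AKR1B10 were at -0.35 and -0.34. Of 12 blood cell markers 5 were in the table (PTPRC, CD3E and MS4A1 were not analysed here), and their summed level was 125 to 209 CPM in positive and 114 to 154 CPM in negative libraries. The most counted were HBB (log2 fold change -0.23) and LYZ (0.17). Of 10 fibroblast and endothelial markers 6 were in the table, at 11.6 to 15.3 CPM in positive and 8.26 to 12.6 CPM in negative libraries, led by COL1A1 (0.06) and LUM (0.67). No fold change of these blood, fibroblast and endothelial markers had an unadjusted p under 0.05, beside 14.4% of all rows tested. The part of all 3 marker lists in the results was not tested. Negative 2 was the lowest or the highest of the 8 libraries for each of the 5 tested members. Positive 1 was the lowest for B2M and the highest for TAP2 and TAPBP. Results are therefore given without 1 or both of them for the members, the heavy chain list and the proteasome and peptidase list.

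Mean levels of the class I genes did not all differ in the same direction. HLA-C, TAP2, TAPBP and HLA-E had higher mean levels in the positive cells, by log2 fold changes of 0.21 to 0.43, whereas B2M had a lower one, by -0.43. None of these passed the threshold (edgeR adjusted p from 0.343 for B2M to 0.695 for HLA-E), and HLA-B and TAP1 had too few counts to be tested. Of the 15 member rows 9 passed the low-count filter, and 0 of these were called (0% of all rows tested). At an unadjusted p under 0.05 there was 1 higher row of HLA-C and 1 lower row, B2M, or 2 of 9 member rows, where 14.4% of all tested rows met that limit (7.52% higher and 6.85% lower). With rows of 1 symbol summed, 1 of the 5 tested members, B2M, met it in the main fit, beside 14.5% of all symbols tested. In some other settings TAPBP met it and B2M did not, as given below. Log2 fold changes were above 0 in 7 of the 9 member rows, beside 48.1% of all rows. Groups did not overlap in 1 of the 9, beside 9.14% of all rows. The median log2 fold change was 0.34 over the 9 member rows and -0.02 over all tested rows. The 9 rows include 2 identical rows of HLA-E and 2 identical rows of TAP2, each counted separately in these figures. With rows of 1 symbol summed, the median over the 5 tested members was 0.37, with B2M alone below 0. In bulk libraries a change in every cell and a change in the share of cells that express a gene cannot be told apart.

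**Figure D1:**
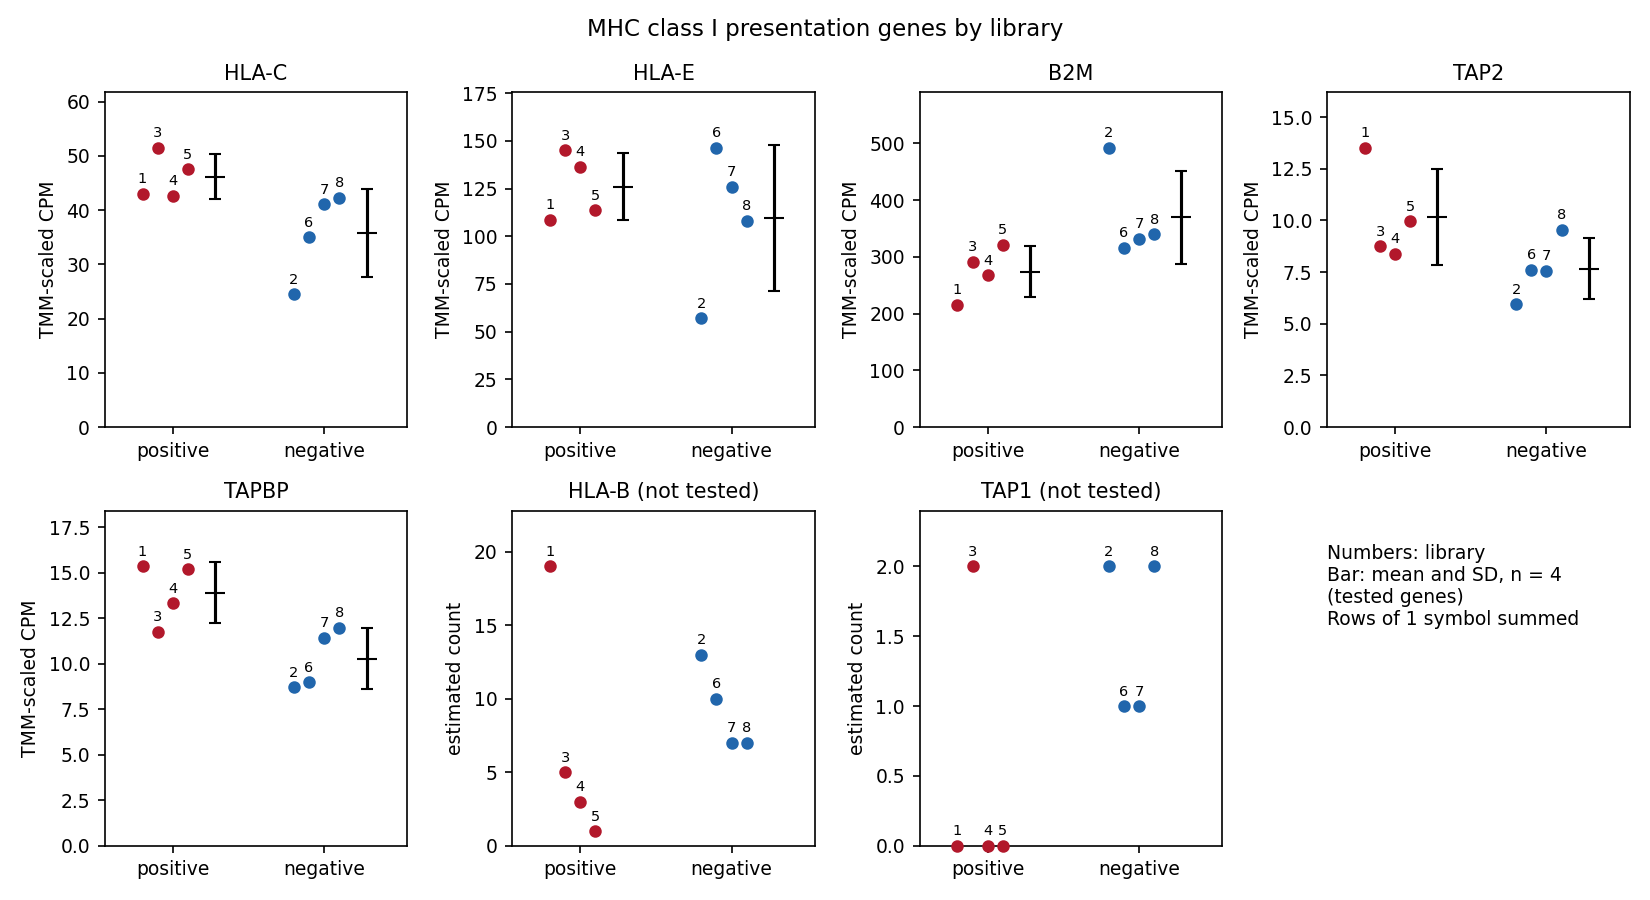
Level of each gene in each library, with positive cells left of negative cells and rows of 1 symbol summed. Tested genes are in TMM-scaled CPM with mean and SD (n = 4 per group), and HLA-B and TAP1 are in estimated counts. Negative 2 is lowest for HLA-C, HLA-E, TAP2 and TAPBP and highest for B2M.

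The classical heavy chain HLA-C gave the clearest separation of the heavy chains. With its 3 rows summed it was at 43.0, 51.5, 42.6 and 47.6 CPM in positive 1, 3, 4 and 5, against 24.6, 35.1, 41.1 and 42.3 CPM in negative 2, 6, 7 and 8. CPM of single genes are scaled by library total and by the TMM factor, which corrects for library composition. All positive libraries lay above all negative ones, though positive 4 and negative 8 were almost level, and with scaling by library totals alone the groups overlapped, positive 4 being at 43.2 CPM and negative 8 at 44.9 CPM. The means were 46.2 ± 4.19 CPM in positive and 35.8 ± 8.11 CPM in negative cells (SD, n = 4 each). The log2 fold change was 0.37 ± 0.20 (SE, 95% interval -0.06 to 0.80, edgeR adjusted p = 0.392). Among all symbols tested with rows summed, 5.06% were likewise higher without overlap. Without negative 2 the estimate was 0.24, and without both negative 2 and positive 1 it was 0.26.

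The 3 HLA-C rows held very unequal counts. Row 3 carried 89.8% to 93.0% of the HLA-C counts in positive and 92.1% to 93.9% in negative libraries, and its log2 fold change was 0.34 (95% interval -0.09 to 0.78). Row 1 held only 17, 32, 29 and 37 counts in positive libraries and 13, 7, 18 and 15 in negative libraries. Its log2 fold change was 0.97 ± 0.34 (SE, 95% interval 0.24 to 1.70, unadjusted p = 0.0132, edgeR adjusted p = 0.312), at 2.84 to 4.85 CPM in positive against 1.18 to 2.78 CPM in negative cells, without overlap. Of all rows tested, 5% likewise had every positive library above every negative one. Row 2 had at most 8 counts in a library, too few to test. Reads of near-identical copies can be divided between such rows, so the estimate for row 1 alone is uncertain.

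HLA-E, which presents peptides from the leader segments of other class I chains to receptors of natural killer cells, stood on 2 rows with the same count in every library. Each row held 326, 555, 512 and 434 counts in positive libraries, against 196, 432, 408 and 379 counts in negative libraries. Each was at 54.4, 72.5, 68.2 and 56.9 CPM in positive libraries, against 28.5, 73.1, 63.0 and 54.0 CPM in negative libraries. The groups overlapped, since negative 6 was the highest library of all and negative 2 the lowest. With rows summed the means were 126 ± 17.5 CPM in positive and 109 ± 38.3 CPM in negative cells (SD, n = 4 each), and the log2 fold change was 0.21 (95% interval -0.34 to 0.75, edgeR adjusted p = 0.695). Without negative 2 it was 0.0065, and without negative 6 it was 0.37. The sources used here do not say whether the identical rows list the same reads again or share reads equally between copies. With 1 of them counted the log2 fold change was again 0.21.

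HLA-B, the other classical heavy chain among the members, was barely counted. Its 2 rows summed to 19, 5, 3 and 1 counts in positive libraries, against 13, 10, 7 and 7 counts in negative libraries. Positive 1 was above every negative library and the other 3 positive libraries below all of them. No fold change is given, since the gene did not pass the filter on low counts. The reference coding sequences of the heavy chains are close to each other. HLA-B and HLA-C share 92.5% of 1086 aligned coding bases, HLA-C and HLA-E 86.7% of 1074, and the longest identical stretch of HLA-B and HLA-C is 66 bases. How reads were divided between HLA-B and HLA-C in these libraries is therefore uncertain.

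The light chain gene B2M was the only tested member, rows summed, with a lower mean in the positive cells. It was at 216, 292, 268 and 322 CPM in positive 1, 3, 4 and 5, against 492.5, 316, 332 and 340 CPM in negative 2, 6, 7 and 8. Positive 5 lay above negative 6, the other 3 positive libraries lay below every negative one, and negative 2 was far above the rest. The means were 274 ± 44.8 CPM in positive and 370 ± 82.1 CPM in negative cells (SD, n = 4 each). The log2 fold change was -0.43 ± 0.20 (SE, 95% interval -0.86 to -0.01, unadjusted p = 0.0461, edgeR adjusted p = 0.343). B2M had by far the most counts of the members, 1293 to 3387 per library, so counting error is small beside the spread between libraries. Without negative 2 the log2 fold change was -0.25, and without both negative 2 and positive 1 it was -0.15. It was -0.22 with limma voom, which weights the libraries, and -0.30 with scaling by library totals, both at an unadjusted p above 0.05 (0.123 and 0.108).

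The peptide transporter subunit TAP2 stood on 3 rows, of which rows 1 and 3 were the same in every library. The 3 rows summed to 81, 67, 63 and 76 counts in positive libraries, against 41, 45, 49 and 67 counts in negative libraries. Scaled, TAP2 was at 13.5, 8.76, 8.39 and 9.96 CPM in positive 1, 3, 4 and 5, against 5.96, 7.62, 7.57 and 9.55 CPM in negative 2, 6, 7 and 8. Positive 1 was the highest library and negative 2 the lowest, and negative 8 lay above positive 3 and positive 4. The log2 fold change was 0.40 (95% interval -0.14 to 0.94, edgeR adjusted p = 0.445), with means of 10.2 ± 2.34 CPM in positive and 7.67 ± 1.47 CPM in negative cells (SD, n = 4 each). It was 0.23 without positive 1, and 0.13 when negative 2 was left out as well. The rows taken singly were at 0.34, 0.45 and 0.34, each with an interval that spanned 0.

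TAP1, the other transporter subunit, was close to absent from the counts. It had 0, 2, 0 and 0 counts in positive libraries and 2, 1, 1 and 2 counts in negative libraries, or 2 against 6 in all. No fold change is given at this depth. In a targeted amplicon assay a count depends on the amplicon of each gene, so the gap between TAP1 and TAP2 does not show that less TAP1 transcript was present.

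TAPBP, the gene of the loading chaperone tapasin, showed how far a value can depend on which row is read. The 3 TAPBP rows summed to 92, 90, 100 and 116 counts in positive libraries, against 60, 53, 74 and 84 counts in negative libraries. Row 2 alone held 86, 86, 7 and 3 counts in positive libraries, against 58, 49, 74 and 80 in negative libraries. In positive 4 row 3 held 86 of the 100 counts, in positive 5 row 1 held 110 of the 116, and in the other 6 libraries row 2 held at least 92.5%. Rows 1 and 3 did not pass the low-count filter.

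**Figure D2:**
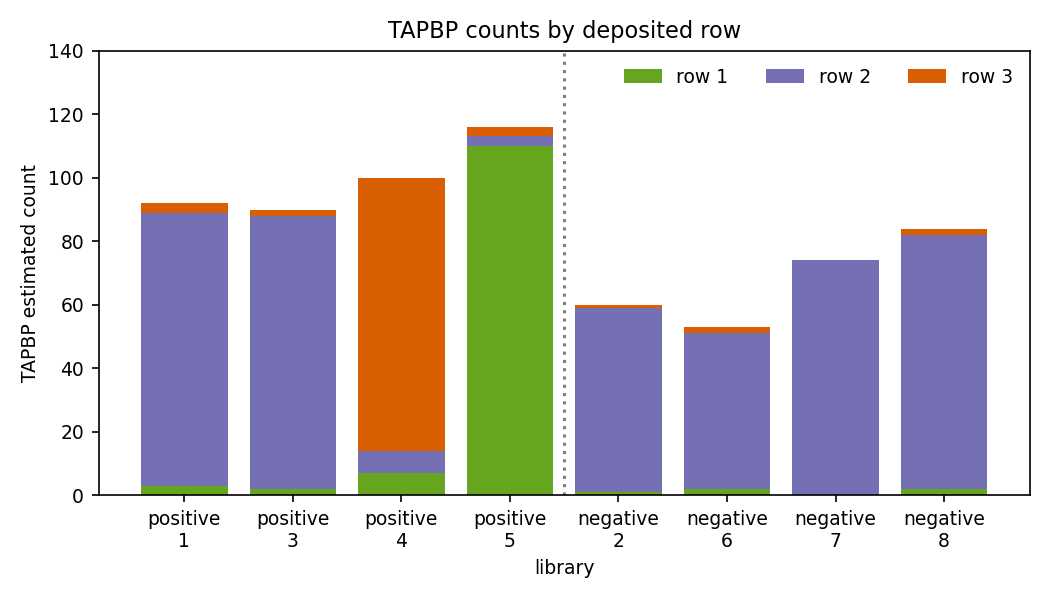
TAPBP estimated counts per library, stacked by deposited row, with positive libraries left of the dotted line and negative libraries right of it. The bulk of the counts is on row 2 except in positive 4 (row 3, 86 of 100) and positive 5 (row 1, 110 of 116).

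Read from row 2, TAPBP was lower in the positive cells, with a log2 fold change of -0.57 ± 0.76 (SE, 95% interval -2.26 to 1.11). Read from the sum it was higher, at 0.43 ± 0.21 (SE, 95% interval -0.03 to 0.90, edgeR adjusted p = 0.364). The sum was at 15.3, 11.8, 13.3 and 15.2 CPM in positive 1, 3, 4 and 5, against 8.72, 8.98, 11.4 and 12.0 CPM in negative 2, 6, 7 and 8. The groups overlapped only in that positive 3 lay just below negative 8, and the means were 13.9 ± 1.70 CPM in positive and 10.3 ± 1.67 CPM in negative cells (SD, n = 4 each). The sum stayed between 0.37 and 0.54 with any 1 library left out, a narrower range than for the other members, while row 2 ranged from -1.24 to -0.17. Without both positive 1 and negative 2 the sum was at 0.31, and with limma voom it was at 0.29. In edgeR the sum had an unadjusted p of 0.0639 in the main fit. It was 0.0386 with scaling by library totals, 0.0399 with upper quartile scaling and 0.0426 with a minimum count of 50. B2M was at 0.108, 0.0773 and 0.070 in those settings, and neither gene passed adjustment in any of them. Of all symbols, 58 stood on 148 rows. The row with the most counts was the same in all libraries for 24 of these symbols and varied between libraries for 22, and for 12 the rows were identical.

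**Figure D3:**
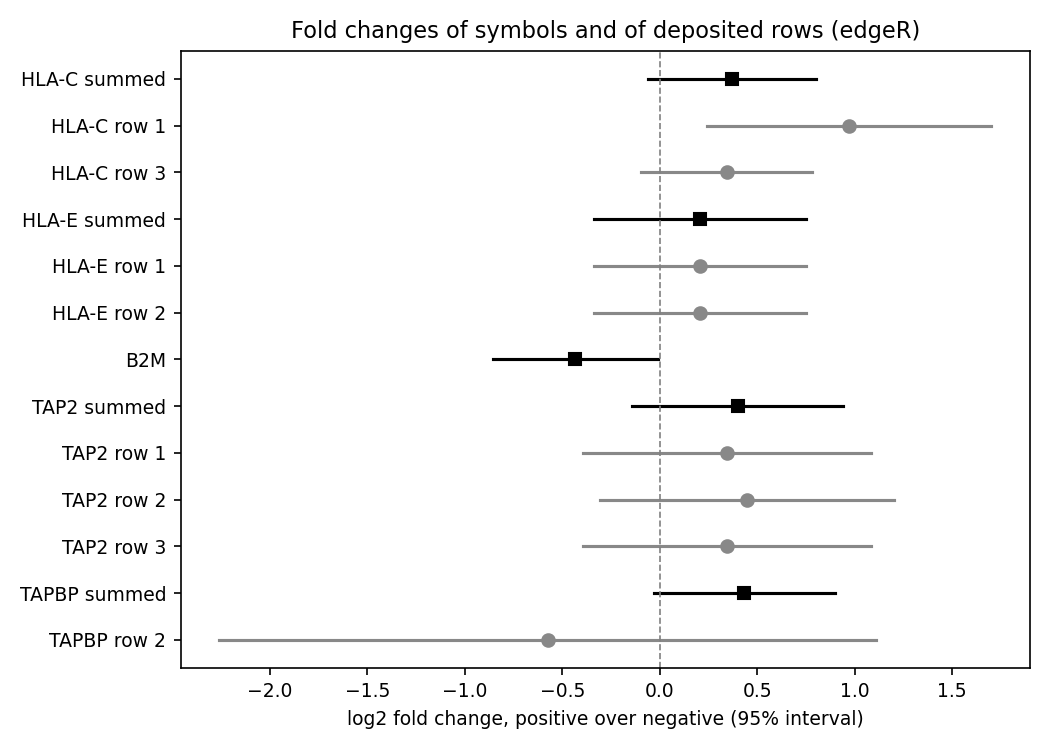
Log2 fold change, positive over negative, with its 95% interval from edgeR, for each tested member with its rows summed (black squares) and for each tested row (grey circles). TAPBP row 2 lies at -0.57 and the TAPBP sum at 0.43, and B2M alone among the sums lies below 0.

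With 1 library left out in turn, no member summed over its rows changed the sign of its log2 fold change. HLA-C ranged from 0.24 to 0.49, HLA-E from 0.0065 to 0.37, TAP2 from 0.23 to 0.55 and B2M from -0.52 to -0.25. For HLA-C, HLA-E and B2M the value nearest to 0 was the one without negative 2, for TAP2 the one without positive 1 and for TAPBP the one without negative 6.

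**Figure D4:**
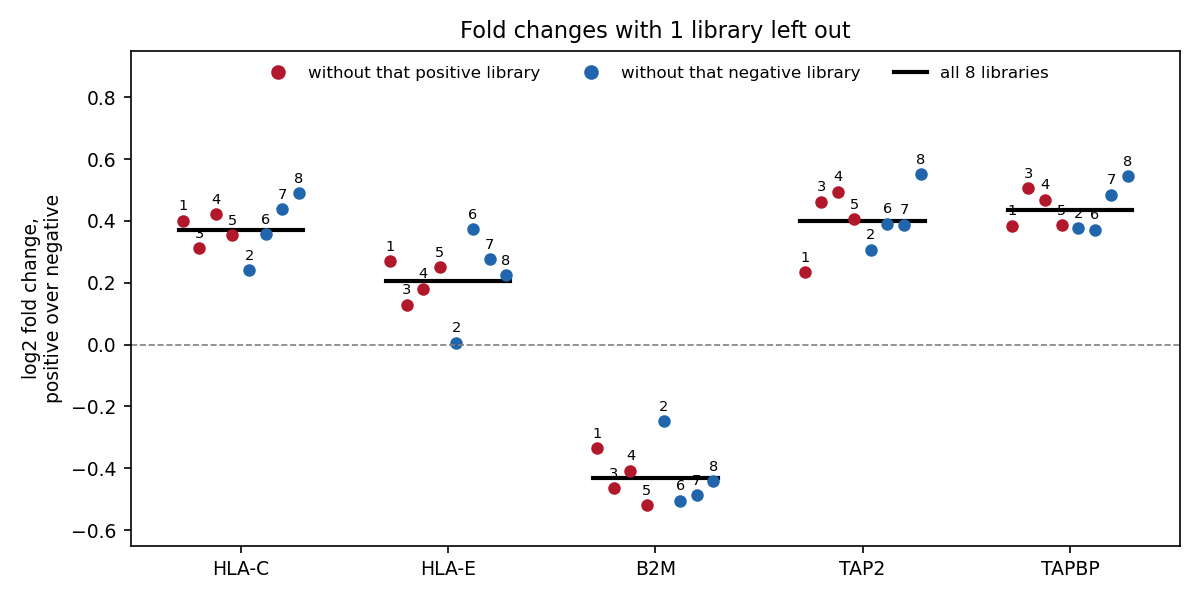
Log2 fold change, positive over negative, of each tested member with 1 library left out (points, numbered by that library, red for positive and blue for negative) and with all 8 (black line). HLA-E comes to 0.0065 without negative 2, and B2M stays below 0 throughout, from -0.52 to -0.25.

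Since B2M and the other members differed in direction, each was also set against B2M in its own library, a measure chosen after these values were seen. HLA-C had 19.95, 17.7, 15.9 and 14.8 counts per 100 B2M counts in positive 1, 3, 4 and 5, against 4.99, 11.1, 12.4 and 12.5 in negative 2, 6, 7 and 8. TAPBP had 7.12, 4.03, 4.97 and 4.73 in positive libraries, against 1.77, 2.84, 3.44 and 3.52 in negative libraries. In both genes the positive libraries lay above all negative ones. TAP2 likewise had 6.26, 3.003, 3.13 and 3.10 in positive libraries, against 1.21, 2.41, 2.28 and 2.81 in negative libraries, also without overlap. HLA-E overlapped, at 35.4 to 50.9 in positive and 11.6 to 46.2 in negative libraries. Of all other symbols tested with rows summed, 13.9% were higher relative to B2M without overlap and 0.159% lower. The ratio does not depend on library scaling, but it does depend on the 2 amplicons and says nothing of the molecules at the cell surface.

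**Figure D5:**
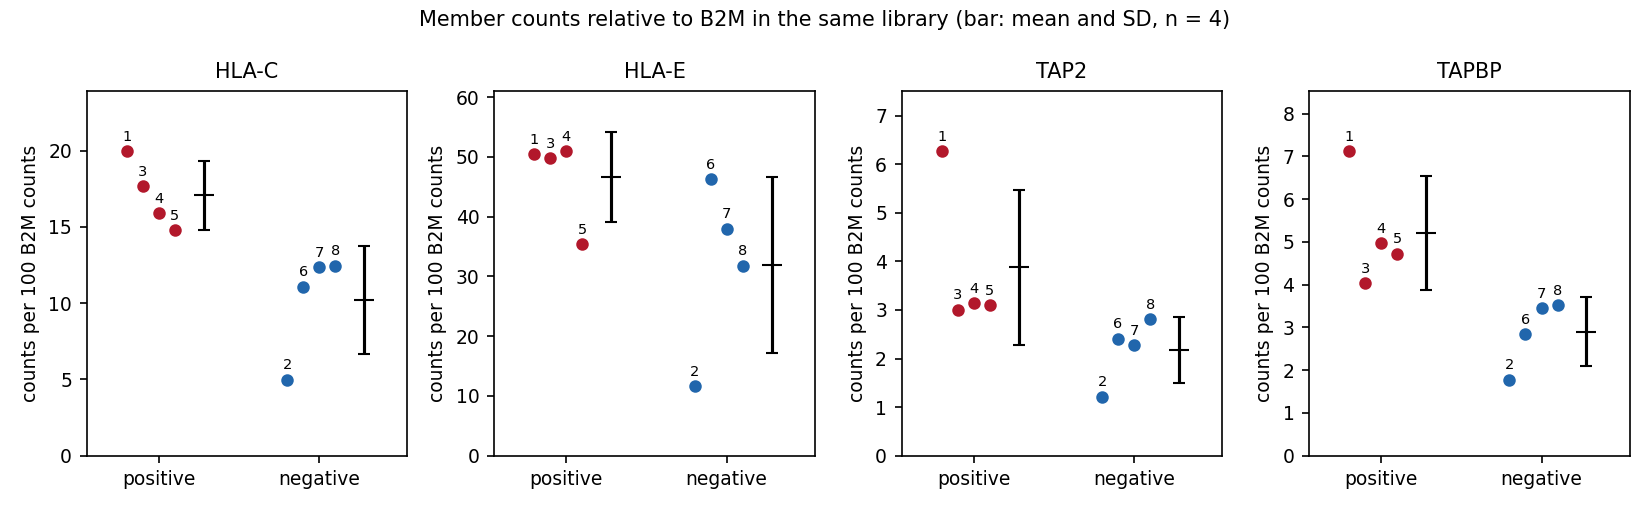
Counts of HLA-C, HLA-E, TAP2 and TAPBP, rows summed, per 100 B2M counts of the same library, with positive libraries left of negative ones and mean and SD beside them (n = 4 each). For HLA-C the positive libraries lie at 14.8 or above and the negative ones at 12.5 or below, and negative 2 is the lowest library in each panel.

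Across the 8 libraries the 4 tested members other than B2M had positive correlations in each pair, from 0.32 to 0.85. Pearson's r of log2-CPM, given as a description, was 0.85 for TAP2 with TAPBP, 0.77 for HLA-C with HLA-E, 0.75 for HLA-C with TAPBP and 0.32 for HLA-E with TAPBP, whereas B2M had an r of -0.68 to -0.83 with the other 4. The points share the scaling of their libraries, and 2 libraries carried much of this. Without positive 1 and negative 2 the r of TAP2 with TAPBP was 0.73 and that of HLA-C with TAPBP 0.70, but that of HLA-E was -0.17 with HLA-C, -0.67 with TAP2 (0.36 over 8 libraries) and -0.55 with TAPBP. That of B2M with the other 4 lay between -0.62 and 0.12. Among 7920 other genes of at least 10 CPM, those most like the mean standardized level of the 5 tested members were ULK1 (r = 0.98), AGO3 (0.97), KHNYN (0.96), PIM3 (0.96) and the pseudogene ALOX12P2 (0.96). These are the highest of 7920 values over only 8 libraries, so they do not show a link. B2M entered the mean with the same sign as the other 4 although it ran against them, so the mean is not a common class I level. That mean was lowest by far in negative 2, at -1.10, and between -0.32 and 0.52 in the other libraries.

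Other heavy chains of the class I family were examined as a list of 18, of which 11 were in the table, on 14 rows, and 12 rows were tested. At an unadjusted p under 0.05, 2 rows were higher, FCGRT among them, beside 7.52% of all rows tested. At that limit 0 were lower, beside 6.85% of all rows, and 0 passed adjustment. FCGRT, which encodes the heavy chain of the neonatal Fc receptor and also pairs with B2M, was at 38.5, 35.0, 34.4 and 27.7 CPM in positive libraries, against 11.6, 13.5, 25.2 and 24.5 CPM in negative libraries. Its groups did not overlap, where 5% of all rows were likewise higher without overlap. Negative 2 was again the lowest library and positive 1 the highest, and no value of FCGRT without them is given. The log2 fold change of FCGRT was 0.85 ± 0.27 (SE, edgeR adjusted p = 0.309). Also named from the list, for their level, were the iron regulator HFE and the protein C receptor gene PROCR, at log2 fold changes of 0.30 and 0.28. In the list as a whole 8 of the 12 tested rows were above 0 and 4 below, where 48.1% of all rows were above 0. The median over the 12 rows was 0.26, beside -0.02 over all tested rows. Without both positive 1 and negative 2, 1 row was higher at an unadjusted p under 0.05, beside 5.77% of all rows. The median of the list was then 0.15.

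The loading partners of class I molecules in the endoplasmic reticulum were near 0 as a list. Of 14 genes 13 were in the table and 12 were tested, with a median log2 fold change of 0.07. At an unadjusted p under 0.05, 0 were higher and 1 lower, beside 7.52% and 6.85% of all rows. CALR, which encodes the chaperone calreticulin of the loading complex, averaged 826 ± 109.6 CPM in positive and 796 ± 159 CPM in negative cells (SD, n = 4 each). Its log2 fold change was 0.05. The 1 lower gene was HSPA5, which encodes the general chaperone BiP, at -0.43 (unadjusted p = 0.0295, edgeR adjusted p = 0.320), with 219 to 311 CPM in positive and 312 to 399 CPM in negative libraries, just short of overlap. Of all rows tested, 4.14% were lower without overlap.

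Genes that make or trim peptides before they reach TAP had a median below 0. In this list of proteasome subunits, proteasome activators and cytosolic peptidases, 13 of 16 genes were in the table and tested, and 6 were lower at an unadjusted p under 0.05, beside 6.85% of all rows, and 0 higher, with 0 past adjustment. The median log2 fold change was -0.35. PSME1, a subunit of the proteasome activator PA28 that favours peptide production, was at 65.9, 137, 115 and 122 CPM in positive libraries, against 270.0, 154, 170.0 and 149 CPM in negative libraries, with no overlap and a log2 fold change of -0.75 (edgeR adjusted p = 0.309). Rows lower without overlap were 4.14% of all tested. POMP, the chaperone that assembles proteasomes, was at -1.06, the nuclear activator PSME3 at -0.73, and the constitutive catalytic subunits PSMB7 and PSMB6 at -0.53 and -0.46 (edgeR adjusted p from 0.309 to 0.312). NPEPPS, an aminopeptidase, was at 0.07. Negative 2 was the highest library for POMP, PSME1, PSME3, PSMB6 and PSMB7. With negative 2 left out, 3 of the 13 genes were lower at an unadjusted p under 0.05, beside 3.01% of all rows. With positive 1 also left out there were again 3, beside 4.27% of all rows, and leaving out positive 1 by itself gave 5, beside 5.49%.

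The regulators of class I transcription split evenly. Of 27 genes 25 were tested, with 13 above 0 and 12 below and a median log2 fold change of 0.01. At an unadjusted p under 0.05, 1 was higher and 0 lower, beside 7.52% and 6.85% of all rows. The 1 higher gene was NLRC5, at 15.7, 16.6, 11.1 and 11.9 CPM in positive libraries, against 7.27, 11.3, 9.11 and 10.6 CPM in negative libraries. Negative 6 lay just above positive 4, and the log2 fold change was 0.53 ± 0.23 (SE, edgeR adjusted p = 0.336). The most counted of the list were STAT3 and the NF-kappaB subunit RELA, at log2 fold changes of -0.06 and -0.43, both with intervals that spanned 0. Of genes for turnover and sorting of class I molecules 10 of 14 were tested, with 6 above 0 and 4 below and a median log2 fold change of 0.11. At an unadjusted p under 0.05, 0 were higher and 2 lower, beside 6.85% of all rows. These were the ubiquitin ligase RNF5, at -0.83, and DERL1, a channel component of endoplasmic reticulum degradation, at -0.38 (edgeR adjusted p = 0.309 and 0.323). RNF5 was at 42.9, 57.6, 41.7 and 76.8 CPM in positive libraries, against 137.6, 78.2, 100.65 and 73.0 CPM in negative libraries. Negative 2 was thus the highest library for RNF5, and it was the lowest for NLRC5. No value without that library is given for these genes. The genes of highest level were SEL1L, an adaptor of endoplasmic reticulum degradation, at -0.15, and RAB11A, a small GTPase of recycling endosomes, at 0.10.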

How the data were processed

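Total RNA of sorted A549 cells was made into targeted amplicon libraries for Ion Torrent sequencing, per the labels' protocols. The submitters' processing notes name fastp (0.20.1), Salmon (1.9) and GRCh38. The authors deposited estimated counts per row, already whole numbers and not scaled; neither the transcript annotation nor a row filter is stated. Salmon divides reads that fit several transcripts, so rows of 1 symbol are shown singly and summed.

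Rows were filtered with filterByExpr (minimum count 10, total 15), which left 11351 of 13841, and tested with edgeR 4.0.16 (R 4.3.3; TMM, robust quasi-likelihood test, Benjamini-Hochberg threshold 0.05). Rows of 1 symbol were also summed over the whole table and fitted again. Alternatives included DESeq2 1.42.0 and limma 3.58.1 (voom). The test was checked on simulated counts, where only the recovery of changes larger than those of the members was required. That check does not show how often changes of the members' size would be found. Intervals of fold changes cover the spread between libraries; amplicon reads carry no molecular identifiers. No 2 libraries agreed within sampling noise.

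Named genes were the members and, of each companion list, up to 4 of smallest p under 0.05 and the 2 of highest level. 1 gene of the heavy chain list is not reported here. Members and lists were chosen with earlier results of these data known. Reference coding sequences (GENCODE 29) were aligned with Biopython 1.88.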

Additional observations from a re-analysis of the deposited data

Results flagged for a closer look

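With groups of 4 libraries, 1 library stood far from the other 3 for 2 of the member values, among 26 groups checked by Dixon's criterion, which flags about 1 in 20 groups by chance. B2M was at 492.5 CPM in negative 2, with the other negative libraries between 316 and 340 CPM. TAP2 row 2 was at 6.51 CPM in positive 1, with the other positive libraries between 4.13 and 4.46 CPM.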

How the results depend on the processing

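No member row passed adjustment in any alternative, and no member's log2 fold change, by row or summed, changed sign. DESeq2's Wald test called 52 genes over the table, and leaving out 1 library gave 0 to 1. The member rows at an unadjusted p under 0.05 numbered 2 of 9 in the main fit, beside 14.4% of all rows. They numbered 1 with scaling by library totals, upper quartile scaling, limma voom, summed rows, identical rows counted once, or without both positive 1 and negative 2. For summed rows 14.5% of all symbols met that limit, and without both libraries 10% of all rows did. Member rows at that limit numbered 4 without a low-count filter, 0 with a minimum count of 50, and 1 to 2 with 1 library left out. With the minimum count of 50, HLA-C row 1 was not tested and B2M had an unadjusted p of 0.070. The filter and the summing change how many member rows are tested, and the share of all rows was not computed for every setting. These counts are therefore not comparable with each other. The median log2 fold change of the member rows was 0.44 with library totals, 0.19 without a filter, 0.25 with a minimum count of 50, 0.20 with limma voom, 0.076 without both libraries and 0.21 to 0.47 with 1 left out. For voom and scaling the cause was not tested. Of the proteasome and peptidase list 3 genes were lower at that p without both libraries, and 3 to 5 without 1 of them. Of other heavy chains 1 row was higher without both (5.77% of all rows), and 1 to 2 without 1 of them (4.9% to 6.7% of all rows). No paired analysis was possible because the groups share no library number. Depth limits HLA-B and TAP1, which have at most 19 counts in any library.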

Other observations

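Genes of the MHC class II pathway, which presents peptides to CD4 T cells and is usually low in epithelium, were mostly not in the table (5 of 14 genes). Of these 3 were tested, and none of the 3 encodes a chain that presents peptides to CD4 T cells. At an unadjusted p under 0.05 there were 0, beside 14.4% of all rows tested, and so few genes do not show an absence of change. HLA-DMA, which edits class II peptides, was at 28.8 ± 5.48 CPM in positive and 23.6 ± 9.44 CPM in negative cells, and the lysosomal protease CTSS at 35.1 ± 2.35 and 30.8 ± 10.2 CPM (SD, n = 4 each).

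Of 10 surface ligands of inhibitory receptors on lymphocytes and macrophages, 5 were tested. At an unadjusted p under 0.05 there were 0, beside 14.4% of all rows tested. With so few genes a count of 0 does not show an absence of change. PVR was at 91.3 ± 6.97 CPM in positive and 93.8 ± 18.2 CPM in negative cells, and CD276 at 55.5 ± 6.69 and 48.3 ± 8.16 CPM (SD, n = 4 each).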
